A study of Mus musculus with 12 samples.

Results

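The 10 genes described here, of the NRF2 antioxidant response, were measured in mouse liver after knockdown of the long noncoding RNA mGULL and after coexpression of its human counterpart hGULL. The genes were taken by name and are Nfe2l2, Keap1, Nqo1, Gclc, Gclm, Hmox1, Txnrd1, Srxn1, Gsr and Slc7a11. All 10 are among the 55385 features of the expression table. Of these, 9 were among the 16378 genes tested, which had a mean of at least 1 TPM (transcript abundance scaled to a fixed total, a unit that also accounts for gene length). Slc7a11 lay below that level and is given by its values only. The 12 livers came from male C57BL/6 mice aged 7 weeks at injection, 4 in each of 3 groups. All mice, controls included, carried adenovirus at a total of 500000000 plaque-forming units until day 7. The Ad-Ctrl mice received a Lac virus with the empty pAdV5 virus, the Ad-shmGULL mice (knockdown) received a virus with a short hairpin RNA against mGULL together with pAdV5, and the Ad-shmGULL+hGULL mice (rescue) received that hairpin virus with one expressing hGULL. No mice without virus were included, and it is not stated which of several hairpins was packaged. The route is given as intravitreal for this experiment and as retro-orbital in the general virus protocol. Whole liver was sequenced, so fewer cells of a type and less RNA per cell cannot be told apart. The 6 hepatocyte markers, led by Alb at 45795 TPM or more in every mouse, were present throughout, and their levels are compared between groups beside the Nfe2l2 result. The level of mGULL was not analysed here, so that the knockdown was not checked per mouse.

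NRF2, the protein product of Nfe2l2, is a transcription factor that is held in the cytoplasm and marked for degradation by KEAP1. Oxidants and electrophiles modify cysteines of KEAP1, after which NRF2 accumulates, enters the nucleus, pairs with a small MAF protein and binds antioxidant response elements near its target genes. This control acts mainly on the NRF2 protein, and the activity of the factor is usually read from its target genes. In liver the pathway is known for supplying glutathione, recycling oxidized thiols and clearing reactive drugs and quinones.

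The core of the antioxidant response element, TGACNNNGC, was looked for on both strands of the RefSeq windows from 250 bases before to 50 bases after each gene start (GRCm38.p6). The table held windows for 7 of the 10 genes (not for Gclc, Hmox1 and Gsr), 9 windows in all, of which 4 contained the core, against 12.4% of all 32851 windows. These matches are shown because NRF2 is known to bind this element. They are printed 5′ to 3′ on the strand that reads TGACNNNGC, with the match in capitals and 10 bases on either side.
Nfe2l2: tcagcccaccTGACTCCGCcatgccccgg
Gclm: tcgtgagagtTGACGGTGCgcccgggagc
Txnrd1: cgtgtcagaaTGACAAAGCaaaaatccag
Srxn1: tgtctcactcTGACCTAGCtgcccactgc
The Nfe2l2 sequence lies at chr2:75704885-75704913 on the minus strand, with its match starting 240 bases before the gene start. That of Gclm is at chr3:122245413-122245441 (minus strand, match 134 bases before the start used for its window, base 122245557, which lies inside the gene extent given below), and that of Txnrd1 at chr10:82859104-82859132 (minus strand, 92 bases before 1 of the 3 starts listed). The Srxn1 sequence, at chr2:152105542-152105570 on the minus strand, lies just inside the gene, with the match at bases 29 to 37. A match is a description of the letters and not evidence of binding. No match was found in the windows of Keap1, Nqo1 and Slc7a11.

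In the comparison of knockdown with control, 1 of the 9 tested genes, Nfe2l2, passed the study's threshold, which asks for a P under 0.05 before adjustment and for a log2 fold change past 0.5 in either direction. Of all tested genes, 7.65% did so. None of the 9 had a Benjamini-Hochberg adjusted p under 0.05 in limma, against 3.23% of all genes, and 3 (Nfe2l2, Gclm and Gsr) had an unadjusted P under 0.05, against 20.2%. Between rescue and knockdown, Gsr and Srxn1 passed the threshold, 2 of 9 against 3% of all genes. None of the 9 had an adjusted p under 0.05 in limma, as was the case for 0 of all genes, and 2 had an unadjusted P under 0.05, against 10.7%. Between rescue and control, 1 gene, again Nfe2l2, passed the threshold, against 7.49%. Nfe2l2 was also the gene with an adjusted p under 0.05, against 2.15%, and 3 genes (Nfe2l2, Gclc and Gclm) had an unadjusted P under 0.05, against 25.3%. Each count above 0 rests on 1 to 3 genes. The median log2 fold change of the 9 was 0.04, 0.16 and 0.25 in the 3 comparisons in this order, and that of all tested genes was 0.09, 0.09 and 0.17. Scaling each mouse by 1 factor, the median over genes of its ratio to the geometric mean of all mice (median-of-ratios scaling), brought the last 3 to within 0.01 of 0 (-0.0030, 0.0071 and -0.0030), and the 9 genes then had medians of -0.07, 0.06 and 0.05. The 3 comparisons share mice, since knockdown and rescue were both set against the same 4 controls, and are not independent.

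**Figure D1:**
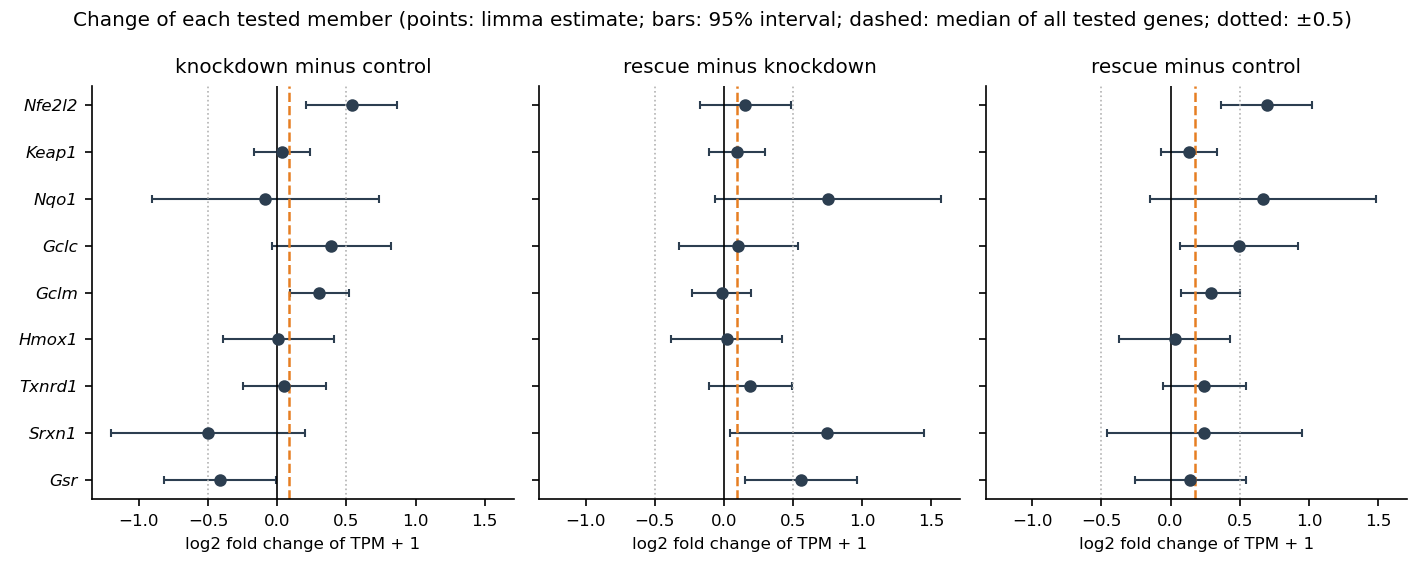
Log2 fold change of TPM + 1 (x axis) for the 9 tested genes (y axis) in the 3 comparisons. Points are limma estimates, bars 95% intervals, the dashed line is the median of all tested genes and the dotted lines mark 0.5 in either direction. The interval of Nfe2l2 lies above 0 in both comparisons with control, at 0.21 to 0.87 after knockdown and 0.37 to 1.03 after rescue, while the widest intervals are those of Nqo1 and Srxn1.

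Nfe2l2 (ENSMUSG00000015839.6, chr2:75675513-75704663), the gene of NRF2 itself, was at 51.0, 43.7, 55.3 and 43.1 TPM in Ad-Ctrl replicates 1 to 4, at 53.6, 93.1, 64.1 and 76.1 TPM in Ad-shmGULL and at 90.8, 80.5, 74.1 and 69.7 TPM in Ad-shmGULL+hGULL. Every rescue mouse lay above every control mouse, a separation found in 21.4% of all tested genes. Knockdown replicate 1 lay within the control range and the other 3 lay above it. The group means were 48.3 ± 5.91, 71.7 ± 17.0 and 78.8 ± 9.18 TPM (SD, n = 4 each). Nfe2l2 rose between control and rescue by 0.70 on the log2 scale (standard error 0.15, limma adjusted p = 0.0432), or 1.63 times on the TPM means. Between control and knockdown the log2 fold change was 0.54 (standard error 0.15, unadjusted P = 0.00378, adjusted p = 0.0715), and between knockdown and rescue it was 0.16 (95% interval -0.17 to 0.49, adjusted p = 0.706). Median-of-ratios scaling reduced the first 2 of these to 0.497 (adjusted p = 0.114) and 0.438 (adjusted p = 0.0547), both below the study's threshold for size. The adjusted p of the rescue comparison ranged from 0.0249 to 0.153 when single mice were left out. It was above 0.05 in 8 of those 12 fits (Ad-Ctrl replicates 2, 3 and 4, Ad-shmGULL replicate 4 and each rescue mouse), and the log2 fold change stayed between 0.63 and 0.76. After knockdown, the log2 fold change was 0.41 without Ad-shmGULL replicate 2, 0.495 without Ad-Ctrl replicate 2 and 0.489 without Ad-Ctrl replicate 4, each under the threshold for size.

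Markers of other liver cells were read beside the rise of Nfe2l2. The 5 endothelial markers, none of them at 0, summed to 85.0 to 149 TPM in the control mice, 141 to 185 in the knockdown mice and 136 to 166 in the rescue mice. The 6 stellate cell markers, also none at 0, summed to 52.1 to 131, 90.6 to 125 and 73.3 to 108 TPM. Of all tested genes, 65.5% had positive log2 fold changes after knockdown and 81.9% between rescue and control, or 49.5% and 49.4% with median-of-ratios scaling. All 5 endothelial and all 6 stellate markers had positive log2 fold changes in both comparisons with control, with median-of-ratios scaling in all but 3 stellate markers of the rescue comparison. Of these, 1 marker, Stab2, an endothelial scavenger receptor named after its value was seen, had an adjusted p under 0.05 after knockdown. Of the 6 hepatocyte markers, 4 had negative log2 fold changes in each comparison with control (median -0.06 after knockdown and -0.23 between rescue and control), or 5 and 6 of them with median-of-ratios scaling (medians -0.17 and -0.43), and none had an adjusted p under 0.05 in limma (2 had an unadjusted P under 0.05 in each). Of the 6, 1 passed the study's threshold as lower in each of these comparisons (2.3% and 0.641% of all tested genes). The hepatocyte markers summed to 74057 to 109804 TPM in the control mice, 79827 to 93993 in the knockdown mice and 67555 to 81529 in the rescue mice. The part of these markers in the Nfe2l2 result was not tested. The summed levels of 7 T cell and NK cell markers (17.3 to 61.2 TPM over all mice) and of 5 cholangiocyte markers (56.9 to 140 TPM, of which Spp1 alone was at 45.0 to 123) overlapped between all groups. Of single markers, 1 of 4 tested cholangiocyte markers after knockdown and 1 of the 7 between rescue and knockdown were higher past the study's threshold. Of all tested genes, 5.35% and 2.33% were.

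Keap1 (ENSMUSG00000003308.15, chr9:21229730-21239332), which encodes the sensor that holds NRF2 in check, was at 53.2, 44.4, 38.0 and 42.0 TPM in the control mice, 46.1, 44.0, 47.2 and 43.5 in the knockdown mice and 49.8, 49.4, 49.6 and 45.0 in the rescue mice. The 3 groups overlapped. Its log2 fold changes were 0.04 (95% interval -0.17 to 0.24) after knockdown and 0.13 (-0.07 to 0.33) between rescue and control, and median-of-ratios scaling turned both to -0.07. Both intervals of Keap1 lie within 0.5 of 0.

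**Figure D2:**
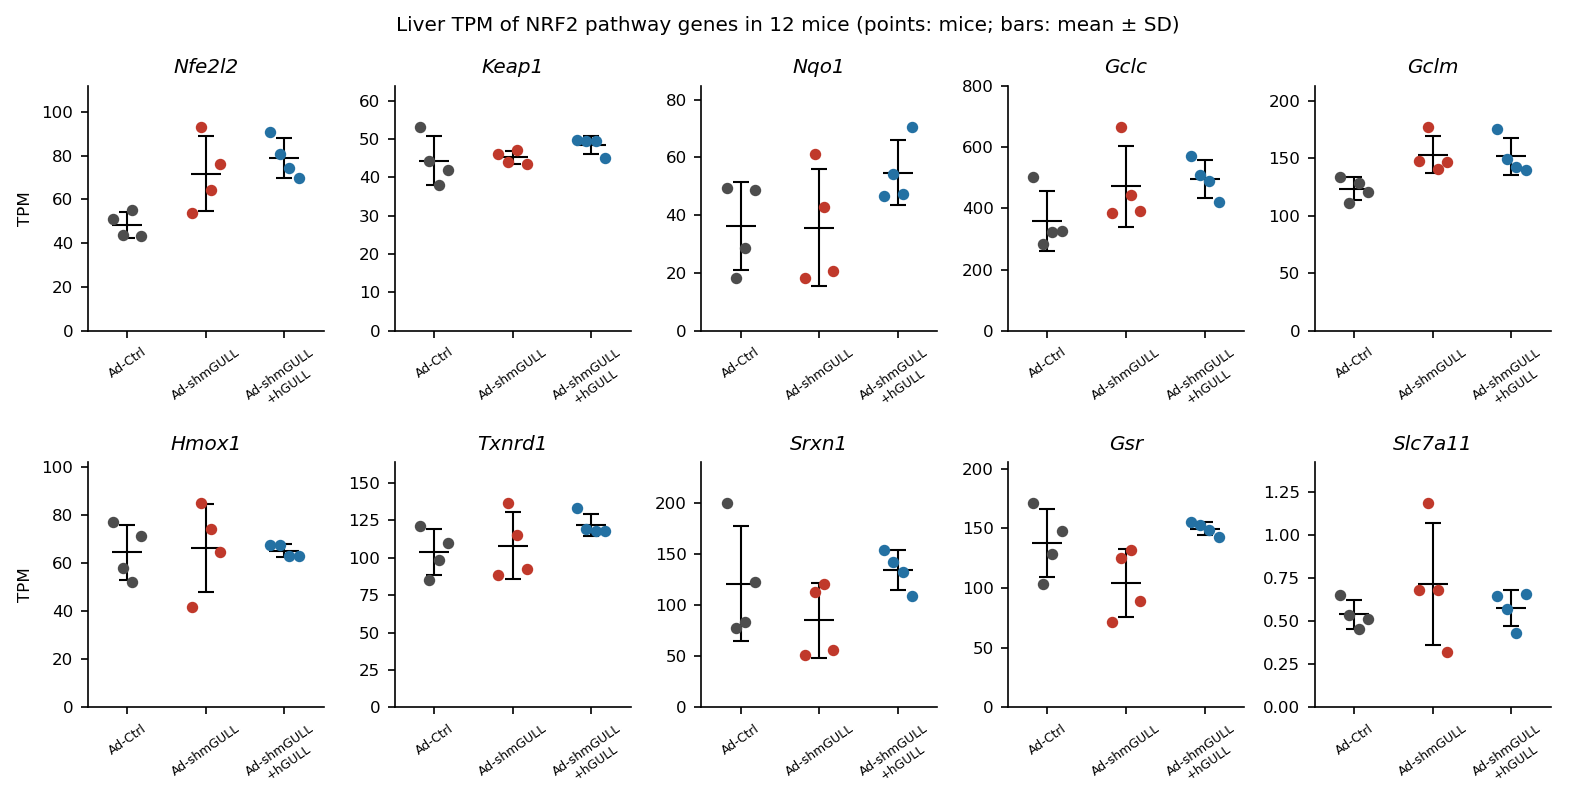
TPM (y axis, from 0 in each panel) of the 10 genes in the 3 groups. Points are mice and bars are the mean ± SD of 4 mice. Nfe2l2 and Gclm are higher in all 4 rescue mice than in all 4 control mice (as are 21.4% of all tested genes). Gsr is higher in all 4 rescue mice than in all 4 knockdown mice (as are 5.4%).

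Glutathione is made in cells in 2 steps, of which the first is carried out by glutamate-cysteine ligase, a pair of a catalytic subunit (Gclc) and a modifier subunit (Gclm). Gclc (ENSMUSG00000032350.9, chr9:77754535-77794489) had the highest level of the 10 genes, at 503, 285, 324 and 325 TPM in the control mice, 385, 667, 444 and 391.8 in the knockdown mice and 572, 508, 488 and 420 in the rescue mice. Control replicate 1 stood above the other controls and above the lower part of both other groups. Its log2 fold change was 0.39 after knockdown (95% interval -0.04 to 0.82, adjusted p = 0.291) and 0.49 between rescue and control (0.07 to 0.92, adjusted p = 0.151). Without Ad-Ctrl replicate 1 these became 0.56 (unadjusted P = 0.00797) and 0.67 (adjusted p = 0.0466), both past the study's threshold, so that the call for Gclc depended on that mouse. Median-of-ratios scaling gave 0.29 after knockdown (limma adjusted p = 0.329). Over all 19 alternatives the values for Gclc ran from 0.21 to 0.56 after knockdown (limma adjusted p 0.0805 to 0.577). Between rescue and control they ran from 0.29 to 0.67 (0.0212 to 0.429).

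Gclm (ENSMUSG00000028124.15, chr3:122245487-122267215) was at 134, 111, 128 and 121 TPM in the control mice, 148, 177, 141 and 147 in the knockdown mice and 175, 149, 142 and 140 in the rescue mice. All knockdown and all rescue mice lay above all control mice, a separation shown by 6.93% and 21.4% of all tested genes in the same direction. The size was small, with a log2 fold change of 0.31 after knockdown (adjusted p = 0.103) and one of 0.29 in the rescue mice relative to control (adjusted p = 0.105; standard error 0.10 for both), neither past the study's threshold. Scaled by the median of ratios they were 0.20 and 0.09. Knockdown and rescue did not differ beyond their spread (log2 fold change -0.02, 95% interval -0.23 to 0.20).

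Gsr (ENSMUSG00000031584.16, chr8:33653238-33698162), the reductase that returns oxidized glutathione to its reduced form, was at 171, 103, 129 and 148 TPM in the control mice, 71.6, 125, 132 and 89.4 in the knockdown mice and 155, 153, 149 and 143 in the rescue mice. The rescue mice lay within a narrow band that was above every knockdown mouse (5.4% of all tested genes were separated in this direction), and the knockdown mice split into a lower pair, replicates 1 and 4, and a pair within the control range. Between rescue and knockdown its log2 fold change was 0.56 (standard error 0.19, unadjusted P = 0.0105, adjusted p = 0.388), past the study's threshold without adjustment. This was 0.39 without Ad-shmGULL replicate 1, 0.50 (0.4997) without Ad-shmGULL replicate 4 and 0.46 with median-of-ratios scaling, each below the threshold for size. Relative to control, Gsr in the knockdown mice had a log2 fold change of -0.42 (standard error 0.19, unadjusted P = 0.0443, adjusted p = 0.233). Under median-of-ratios scaling this value became -0.52 (adjusted p = 0.0784), which passed the study's threshold. Between rescue and control it was 0.14 (95% interval -0.26 to 0.55).

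Slc7a11 (ENSMUSG00000027737.10, chr3:50364936-50499087), the cystine importer that feeds glutathione synthesis in many cell types, had the lowest level of the 10. It was listed at 0.654, 0.536, 0.457 and 0.514 TPM in the control mice, 0.683, 1.19, 0.685 and 0.320 in the knockdown mice and 0.646, 0.570, 0.433 and 0.657 in the rescue mice. The groups overlapped, and with no filter on low values the log2 fold changes of Slc7a11 were 0.14 for knockdown against control, -0.10 for rescue against knockdown and 0.03 for rescue against control (limma adjusted p = 0.697, 0.825 and 0.951).

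In the thioredoxin system, Txnrd1 (ENSMUSG00000020250.10, chr10:82833951-82897724) encodes the cytosolic reductase of thioredoxin. It was at 121, 85.4, 98.5 and 110 TPM in the control mice, 88.2, 136, 115 and 92.7 in the knockdown mice and 133, 119, 118 and 118 in the rescue mice. All groups overlapped, and the log2 fold changes of Txnrd1 were 0.05 after knockdown (95% interval -0.25 to 0.35; -0.05 with median-of-ratios scaling), 0.19 between rescue and knockdown (-0.11 to 0.49) and 0.24 between rescue and control (-0.06 to 0.54).

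Srxn1 (ENSMUSG00000032802.8, chr2:152105524-152111376), which encodes the sulfiredoxin that repairs overoxidized peroxiredoxins, was at 200 (199.8), 77.9, 83.1 and 123 TPM in the control mice, 51.1, 113, 121 and 56.3 in the knockdown mice and 154, 143, 133 and 109 in the rescue mice. Knockdown replicates 1 and 4 were again the low pair, below every other mouse, while replicates 2 and 3 lay within the control range. Its log2 fold change between rescue and knockdown was 0.74 (standard error 0.32, unadjusted P = 0.0397, adjusted p = 0.446), past the study's threshold. The unadjusted P rose to 0.128 without Ad-shmGULL replicate 1 and to 0.115 without Ad-shmGULL replicate 4, and it was 0.0874, 0.0748 and 0.0640 without rescue replicates 1, 2 and 3. After knockdown the log2 fold change of Srxn1 was -0.50 (-0.498, 95% interval -1.20 to 0.20, adjusted p = 0.422). Median-of-ratios scaling gave -0.60 (adjusted p = 0.270), and the value was -0.22 without Ad-Ctrl replicate 1, -0.29 without Ad-shmGULL replicate 1 and -0.70 without Ad-shmGULL replicate 3, none with an unadjusted P under 0.05.

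Nqo1 (ENSMUSG00000003849.8, chr8:107388225-107403205), the quinone reductase most often used as a readout of NRF2, was at 49.4, 18.4, 28.8 and 48.7 TPM in the control mice, 18.3, 61.1, 42.7 and 20.8 in the knockdown mice and 46.8, 54.4, 47.4 and 70.6 in the rescue mice. Control and knockdown mice covered nearly the same range, and the rescue mice lay at or above its middle. The log2 fold changes were -0.09 after knockdown (95% interval -0.90 to 0.73), 0.75 between rescue and knockdown (-0.07 to 1.57, unadjusted P = 0.0688, adjusted p = 0.496) and 0.67 between rescue and control (-0.15 to 1.49, adjusted p = 0.282). Both intervals for rescue include 0 as well as 1 on the log2 scale. Without Ad-shmGULL replicate 2, the log2 fold change between rescue and knockdown was 1.06 (unadjusted P = 0.0114), past the study's threshold. This was the highest value over the 19 alternatives, which ran from 0.498 to 1.06 (limma unadjusted P 0.0114 to 0.211). Between rescue and control the alternatives for Nqo1 ran from 0.39 to 0.85 (limma adjusted p 0.151 to 0.613).

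Hmox1 (ENSMUSG00000005413.8, chr8:75093618-75100593), which encodes the inducible heme oxygenase and is also expressed by macrophages, was at 77.0, 58.0, 52.2 and 71.1 TPM in the control mice, 41.6, 84.9, 74.2 and 64.6 in the knockdown mice and 67.4, 67.4, 62.9 and 63.0 in the rescue mice. The groups overlapped, and their means of 64.6, 66.3 and 65.2 TPM were within 3 TPM of each other. Its log2 fold changes were 0.01, 0.02 and 0.03, with 95% intervals of -0.39 to 0.41, -0.38 to 0.42 and -0.37 to 0.43 for knockdown against control, rescue against knockdown and rescue against control, and median-of-ratios scaling turned them to -0.09, -0.08 and -0.17. The 8 Kupffer cell and macrophage markers, none of them at 0, summed to 432 to 754, 408 to 720 and 504 to 654 TPM in the control, knockdown and rescue mice, which overlapped as Hmox1 did. Cd5l alone was at 208 to 436 TPM. The log2 fold changes of single markers ran from -1.04 to 0.39 after knockdown and from -0.93 to 0.43 between rescue and control. In each, 1 of the 8 passed the study's threshold as lower (2.3% and 0.641% of all tested genes), and 0 had an adjusted p under 0.05 in limma.

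Ranked by mean TPM in the control mice, the order was Gclc, Gsr, Gclm, Srxn1, Txnrd1, Hmox1, Nfe2l2, Keap1, Nqo1 and Slc7a11. Neighbors in this order were apart at 3 steps: Gclc was above Gsr, Txnrd1 above Hmox1 and Nqo1 above Slc7a11 with no overlap between the 4 mice of each. The ranges of the other neighbors overlapped. In the knockdown mice Gclm took the place after Gclc, and did not overlap with either neighbor. In the rescue mice Nfe2l2 ranked above Hmox1, again without overlap, while Gsr ranked between Gclm and Srxn1 with overlapping ranges.

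The mice within a group differed in most of the 9 tested genes at once. Control replicate 1 was the highest control in 8 of the 9 and replicate 2 the lowest in 6. Knockdown replicate 2 was the highest knockdown mouse in 6 and replicate 1 the lowest in 7, and rescue replicate 1 was the highest rescue mouse in 7 and replicate 4 the lowest in 7. These orders are of the values as deposited. The share of all tested genes with the same orders was not counted, so they cannot be called particular to these genes. On average over the 9 genes, the log2(TPM + 1) of a mouse deviated from its group mean by -0.30 to 0.35 in the control group, -0.38 to 0.40 in the knockdown group and -0.08 to 0.10 in the rescue group. The scaling factors of the mice, from all genes, were 1.004 for control replicate 1 and 0.858 for replicate 2, 1.122 for knockdown replicate 2 and 0.916 for replicate 1, and 1.043 to 1.116 in the rescue group. Median-of-ratios scaling lowered the residual SD in 8 of the 9 genes, for example from 0.24 to 0.17 for Nfe2l2, from 0.14 to 0.08 for Gclm and from 0.62 to 0.56 for Nqo1. Keap1 was the exception (0.13 to 0.14). The median residual SD over all tested genes also fell, from 0.21 to 0.19.

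**Figure D3:**
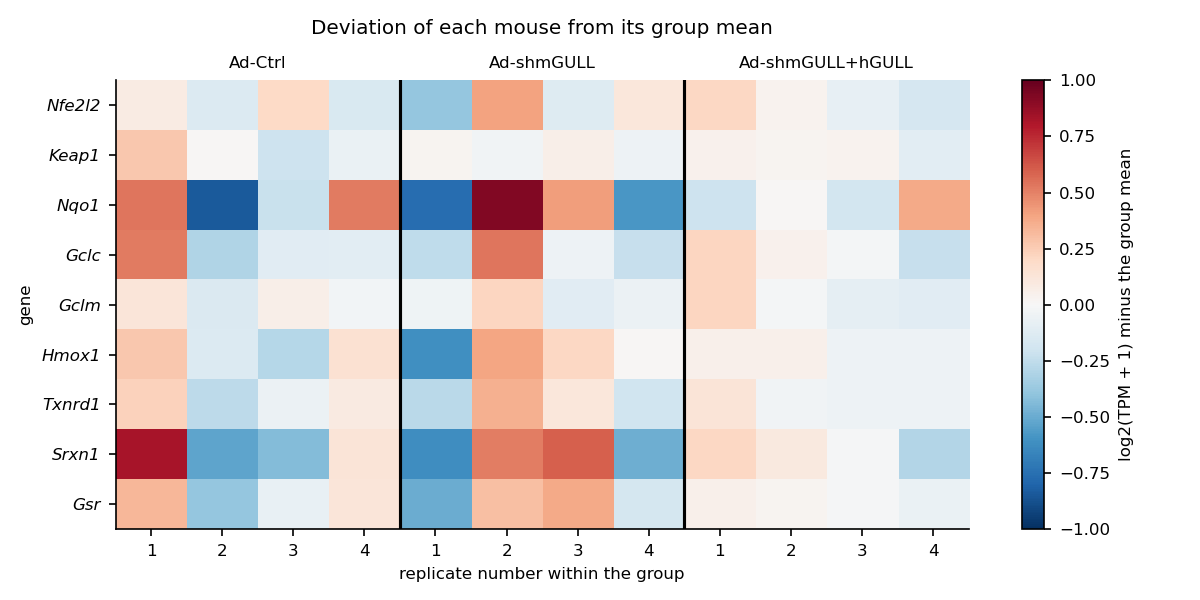
Deviation of log2(TPM + 1) from the group mean (color) for the 9 tested genes (rows) and 12 mice (columns, by group and replicate number). Control replicate 1 and knockdown replicate 2 are mostly red, control replicate 2 and knockdown replicate 1 mostly blue, and the rescue mice, with mean deviations from -0.08 to 0.10, are the palest.

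The genes differed in how much they varied between mice of a group. Nqo1 and Srxn1 had residual SDs of 0.62 and 0.53 on the log2 scale, at the percentiles 99.2 and 98.1 of the 2036 and 799 tested genes within 0.5 log2 units of their mean level. Keap1 and Gclm, at 0.13 and 0.14, were at the percentiles 30.5 and 34.5 of genes at their level. The median over all tested genes was 0.21. For Nqo1 the highest mouse was 2.68 times the lowest in the control group, 3.34 times in the knockdown group and 1.51 times in the rescue group.

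Other genes of the pathway were taken from a list of 50 partners and targets, of which 49 were tested. After knockdown, 3 of the 49 passed at an adjusted p under 0.05 (Me1 and Tkt higher, Mgst1 lower), and 4 passed the study's threshold, the fourth being Pgd (0.85, adjusted p = 0.138; named after its value was seen). Over all tested genes these shares were 3.23% and 7.65%. The median log2 fold change of the 49 was 0.18, against 0.09 over all tested genes. All 6 genes of NADPH supply, which provides the reducing power for glutathione and thioredoxin reductases, had positive log2 fold changes after knockdown. Of all tested genes, 65.5% did so. With median-of-ratios scaling it was 5 of the 6, against 49.5% of all tested genes. G6pdx, named after its value was seen, was near 0 at 0.015 (limma unadjusted P = 0.941) and turned to -0.083 with that scaling. Of the 6, 5 were higher with an unadjusted P under 0.05 in limma, against 15.4% of all tested genes. Me1 and Tkt had an adjusted p under 0.05. Me1, encoding malic enzyme, was at 298, 169, 193 and 173 TPM in the control mice, 613, 1123, 574 and 565 in the knockdown mice and 620 (619.6), 540 (540.5), 316 and 425 in the rescue mice. The control mice of Me1 were all below the other 8. Of all tested genes, 6.93% were higher in this way after knockdown and 21.4% between rescue and control. Me1 rose by 1.76 on the log2 scale after knockdown (adjusted p = 0.00822) and by 1.18 in rescue relative to control (adjusted p = 0.0445, standard error 0.26 for both; 0.98 with an adjusted p = 0.114 under median-of-ratios scaling). The call of Me1 after knockdown held in all 19 alternatives (adjusted p from 0.00544 to 0.0358), and that between rescue and control in 8 of them (0.00700 to 0.156). Malic enzyme also supplies fatty acid synthesis, and Me1 is regulated with the lipogenic genes. Tkt, encoding transketolase of the pentose phosphate pathway, changed by 0.59 after knockdown (standard error 0.14, adjusted p = 0.0445), with means of 69.1 ± 10.4 and 105 ± 23.0 TPM (SD, n = 4 each). Its adjusted p was under 0.05 in 7 of the 19 alternatives (range 0.0247 to 0.141), and was lost with no filter, with only the 2 groups, with the replicate block and without any 1 of Ad-Ctrl replicates 2 to 4, Ad-shmGULL replicates 2 and 3 or the rescue mice.

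Mgst1, a membrane-bound glutathione transferase of the endoplasmic reticulum and mitochondria, fell. It was at 2458, 2278, 2857 and 2716 TPM in the control mice, 732, 844, 2097 and 951 in the knockdown mice and 1736, 1637, 1920 (1920.3) and 2006 in the rescue mice. All 8 mice with the hairpin virus lay below all 4 control mice, and knockdown replicate 3 stood above the rescue mice, apart from the other 3 knockdown mice. Of all tested genes, 2.06% were lower than all controls in this way after knockdown and 0.855% between rescue and control. After knockdown Mgst1 had a log2 fold change of -1.28 (adjusted p = 0.0229, standard error 0.26), and it was 0.79 between rescue and knockdown (standard error 0.26, unadjusted P = 0.00922, adjusted p = 0.379). Between rescue and control it was -0.497 (limma unadjusted P = 0.0750, adjusted p = 0.242), not past the study's threshold. That adjusted p was under 0.05 in 3 of the 19 alternatives. The call after knockdown held in 12 of the 19 alternatives (adjusted p 0.000254 to 0.0908) and was lost with no filter, with only the 2 groups and without Ad-Ctrl replicates 2, 3 or 4 or Ad-shmGULL replicates 2 or 4. The other 10 tested genes of glutathione synthesis and conjugation, several of which are near-identical Gsta and Gstm paralogs with uncertain values, had no adjusted p under 0.05 in this comparison.

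Ephx1, the microsomal epoxide hydrolase, was the one of 12 detoxification genes with an adjusted p under 0.05. It was at 994, 791, 1002 and 898 TPM in the control mice and 1062, 1474, 1114 and 1187 in the knockdown mice. The rescue mice were at 1400 (1399.9), 1267, 1226 and 1315 TPM. All knockdown and all rescue mice lay above all control mice, as in 6.93% and 21.4% of all tested genes. Ephx1 had a log2 fold change of 0.39 after knockdown (limma adjusted p = 0.0871) and of 0.12 between rescue and knockdown. Its log2 fold change was 0.50 between rescue and control (standard error 0.12, adjusted p = 0.0478), or 0.30 with median-of-ratios scaling (adjusted p = 0.167). The call held in 8 of the 19 alternatives (adjusted p 0.00548 to 0.167), and was also lost with no filter, with the replicate block and without any 1 of Ad-Ctrl replicates 2 to 4, Ad-shmGULL replicate 4 or the rescue mice. Of the 49 genes, 2 (Me1 and Ephx1) had an adjusted p under 0.05 in that comparison and 6 passed the study's threshold (also Pgd, Tkt, Gsta4 and Cbr1, the last 2 named after their values were seen), with a median log2 fold change of 0.27 against 0.17 over all tested genes, of which 2.15% and 7.49% passed. After median-of-ratios scaling none did at an adjusted p under 0.05. Between rescue and knockdown none had an adjusted p under 0.05 in limma, 4 had an unadjusted P under 0.05 and 2 passed the study's threshold, Mgst1 higher and Me1 lower, against 10.7% and 3% of all tested genes.

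**Figure D4:**
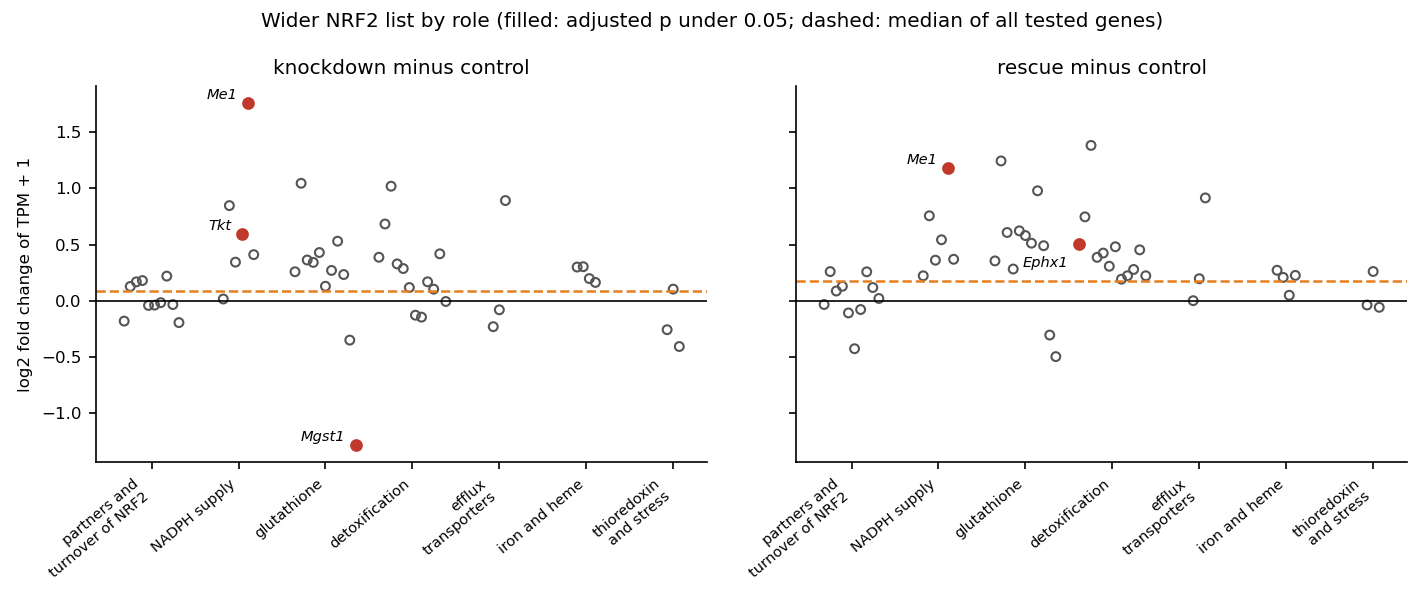
Log2 fold change of TPM + 1 (y axis) of 49 other pathway genes by role (x axis), for knockdown minus control and rescue minus control. Filled and named points have an adjusted p under 0.05 (Me1, Tkt and Mgst1 on the left, Me1 and Ephx1 on the right), open points do not, and the dashed line is the median of all tested genes.

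None of the 10 partners and regulators of NRF2, among them Bach1, Cul3, Sqstm1 and the small MAF genes, passed the study's threshold in any comparison. Their log2 fold changes ran from -0.19 to 0.22 after knockdown, and with median-of-ratios scaling Maff, named after its value was seen, passed it between rescue and control at -0.60 (adjusted p = 0.270). The 4 iron and heme genes, including the ferritin subunits Ftl1 and Fth1, ran from 0.16 to 0.30 after knockdown, and the 3 efflux transporters from -0.23 to 0.89, none past the threshold. Osgin1, an NRF2 target beside mGULL, was at 199, 173, 165 and 180 (180.3) TPM in the control mice, 102, 157, 145 and 142 in the knockdown mice and 143, 170 (170.04), 187 and 192 in the rescue mice. Every knockdown mouse lay below the 4 controls (2.06% of all tested genes were lower in this way), and the rescue mice overlapped with both. Osgin1 had a log2 fold change of -0.41 after knockdown (adjusted p = 0.109, standard error 0.13), or -0.51 with median-of-ratios scaling (adjusted p = 0.0370). The log2 fold change of Osgin1 between rescue and knockdown was 0.35 (standard error 0.13, unadjusted P = 0.0220, adjusted p = 0.415). Of 17 antioxidant enzymes not chosen as NRF2 targets, such as superoxide dismutases, catalase and peroxiredoxins, 0 had an adjusted p under 0.05 in limma in any comparison. After knockdown 3 of them had an unadjusted P under 0.05 (20.2% of all tested genes), between rescue and knockdown 1 (10.7%) and between rescue and control 3 (25.3%), and Gpx3 passed the study's threshold after knockdown with a log2 fold change of 0.56 (adjusted p = 0.199).

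On the values as deposited Nfe2l2 had the largest absolute log2 fold change of the 9 after knockdown, whereas with median-of-ratios scaling Srxn1 (-0.60) and Gsr (-0.52) exceeded it (0.44). Over the 12 mice, the genes most like it in log2(TPM + 1) were Mast4, Ccdc77 and Asph, out of 16377. As a description, their values of Pearson's r were 0.98, 0.97 and 0.96, and the mice share their groups and library composition.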

How the data were processed

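Strand-specific liver libraries of 12 mice were sequenced, and the deposited values are TPM, for which per the labels and the study's methods the authors used fastp 0.23.2, FastQC 0.11.8, HISAT2 2.2.1.0 (GRCm38.p6), GENCODE VM24 genes and, per the processing notes, featureCounts of Subread 2.0. TPM sum to a fixed total, so the depth per mouse is unknown and no counting interval can be given. Samples were grouped by their labels. Values were analysed as log2(TPM + 1) in R 4.3.3 with limma 3.58.1, for 16378 genes (average over the mice at or above 1 TPM), in 1 model of 3 groups with a mean-variance trend and Benjamini-Hochberg adjustment over all tested genes. The added 1 understates changes of low genes. Nothing states that the mice came from separate cages or batches, so P values measure the spread between these mice. The procedure was tested on simulated data. Genes named are all 10 members, genes of the other lists with an adjusted p under 0.05 in a comparison with control (at most 8 per comparison and list, by size), Osgin1, and the 3 genes most correlated with Nfe2l2. Gpx3 and the others so marked were named after their values were seen. The members and lists were chosen with earlier results of these data known. Positions and sequences are from RefSeq (GRCm38.p6), read with Python 3.11.15. Alternatives were 0.1 as the pseudocount, no filter, a stricter filter (mean TPM 5 or more), median-of-ratios scaling, only the 2 groups compared, array weights, a block for same-numbered mice and leaving out each mouse.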

Additional observations from a re-analysis of the deposited data

Results flagged for a closer look

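Of the 30 sets of 4 mice examined (10 genes in 3 groups), 2 held a mouse whose gap to the nearest other, divided by the range of the group, was above Dixon's 95% critical value for 4 samples, where chance gives about 1 in 20. Keap1 in Ad-shmGULL+hGULL replicate 4, at 44.98 TPM, was below the other 3 rescue mice, which lay between 49.4 and 49.8 TPM (gap ratio 0.921). Txnrd1 in Ad-shmGULL+hGULL replicate 1, at 133 TPM, was above the other 3, between 118 and 119 TPM (gap ratio 0.904). Both stand out because the other 3 rescue mice were close together.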

How the results depend on the processing

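Of the log2 fold changes of the 9 tested genes under 19 alternatives each, 147 of knockdown minus control, 151 of rescue minus knockdown and 161 of rescue minus control kept their direction and their side of the study's threshold. Median-of-ratios scaling reversed Keap1 (-0.065, -0.00052 and -0.066 in these 3 comparisons), Hmox1 (-0.095, -0.075 and -0.17), Txnrd1 after knockdown (-0.052) and Gsr between rescue and control (-0.057). Array weights reversed Txnrd1 after knockdown (-0.016) and Hmox1 between rescue and knockdown (-0.032). Leaving out 1 mouse at a time gave values on both sides of 0 after knockdown for Keap1 (-0.033 to 0.12), Nqo1 (-0.39 to 0.17), Hmox1 (-0.12 to 0.21) and Txnrd1 (-0.067 to 0.14). It did so for Gclm (-0.087 to 0.056) and Hmox1 (-0.18 to 0.15) between rescue and knockdown and for Hmox1 between rescue and control (-0.066 to 0.12). The other genes put through these fits were Me1, Tkt, Mgst1, Ephx1 and Osgin1. Of these, Tkt between rescue and knockdown (-0.13 to 0.084) and Osgin1 between rescue and control (-0.11 to 0.029) did so too. The cause was not tested.

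Among the 9 genes, the count with an adjusted p under 0.05 after knockdown was 1 with array weights (0 in the report). The count past the study's threshold between rescue and knockdown was 1 with no filter, 1 with median-of-ratios scaling and 1 with the replicate block (2 in the report). Between rescue and control it was 0 with median-of-ratios scaling, 2 with only the 2 groups compared and 2 with array weights (1 in the report), and the count with an adjusted p under 0.05 was 0 with no filter, 0 with median-of-ratios scaling, 0 with the replicate block and 3 with array weights (1 in the report). For the 49 other pathway genes, the count with an adjusted p under 0.05 after knockdown was 1 with no filter and 1 with only the 2 groups (3 in the report), and between rescue and control 0 with no filter, 0 with median-of-ratios scaling, 0 with the replicate block, 6 with only the 2 groups and 15 with array weights (2 in the report). Past the study's threshold between rescue and knockdown it was 1 with no filter and 1 with array weights (2 in the report).

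With single mice left out, the 9 genes gave 0 to 2 past the threshold after knockdown (0 without Ad-Ctrl replicate 4), 0 to 3 between rescue and knockdown (0 without Ad-shmGULL replicate 1 or 4) and 1 to 2 between rescue and control. Their adjusted counts were 0 to 1, 0 to 0 and 0 to 2. The other pathway genes gave 2 to 9, 1 to 3 and 1 to 14 past the threshold, and 1 to 6, 0 to 1 and 0 to 8 at the adjusted level. The highest counts after knockdown (9 and 6) and between rescue and control (14 and 8) were those without Ad-Ctrl replicate 1, and the lowest of the latter past the threshold (1) was that without Ad-Ctrl replicate 2.

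Over all tested genes, the count past the threshold was 765, 242 and 708 with a mean TPM of at least 5, against 1253, 492 and 1226, and 723 between rescue and control with median-of-ratios scaling. That scaling changed the higher and lower calls from 876 and 377 to 625 and 548 after knockdown, from 382 and 110 to 246 and 166 between rescue and knockdown and from 1121 and 105 to 486 and 237 between rescue and control. At an adjusted p under 0.05 the 529 genes after knockdown became 236 with no filter and 33 with only the 2 groups, and the 352 between rescue and control became 9 with no filter, 568 with a mean TPM of at least 5, 11 with median-of-ratios scaling, 1693 with only the 2 groups, 3184 with array weights and 71 with the replicate block.

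Mice with the same replicate number did not deviate together (r from -0.24 to 0.15 over 12 pairs, 2 of them over 0.1), and 4 of 12 correlated best with a mouse of their own number, so the numbers were not taken to pair the mice. The depth of the libraries is unknown from TPM, and 4 mice per group limit the precision.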
